A study of Homo sapiens with 12 samples.

Results

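The genes described here are 33 established transcriptional targets of the tumour suppressor p53, followed in Kelly, a human neuroblastoma line, under knockdown of either of the related corepressor genes RCOR2 and RCOR1. They were picked by symbol from the 60660 gene identifiers of the deposited tables, as a list of known p53 targets. No measured value entered the rule, but the list was chosen with earlier results of these data known. Of the 33 genes, 31 passed the filter on low values and were tested together with the other genes that passed, 16842 in all. The 2 others, the antiviral factor gene TRIM22 and the junction gene PERP, were listed at or near 0 in every library.

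Kelly cells are MYCN-amplified and have the adrenergic character of this tumour. Protein was not measured. The 6 groups were shRCOR2 cells induced and untreated, shRCOR1 cells induced and untreated, and shCTRL cells induced and untreated, with 2 libraries each. In each line a short hairpin RNA (shRNA) is transcribed once doxycycline is present; it targets RCOR2 or RCOR1, or is a control hairpin in shCTRL cells. Induced cells received 2 µg/mL doxycycline and untreated cells none. The titles and time label give 72 h, whereas the treatment protocol speaks of 24 or 48 h, so the duration is uncertain. The sources used here do not give the number of hairpins per target, whether a line is 1 clone, or whether the 2 replicates of a group were separate cultures, so each p-value measures only the spread between these samples.

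p53 is a DNA-binding transcription factor that is held low by the ubiquitin ligase MDM2 and becomes active under DNA damage, ribosomal stress and oncogene activity. It binds a pair of similar short motifs near its targets and raises genes for cell cycle arrest, DNA repair, metabolism and cell death, together with genes that switch p53 off again. The proteins of RCOR1 and RCOR2 are scaffolds that hold the demethylase KDM1A and histone deacetylases on chromatin.

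The p53 binding motif was looked for in the RefSeq promoter windows of the members (GRCh38.p14, 250 bases before to 50 bases after an annotated start). Of the 33 members 27 had at least 1 window, and some had several at different starts, 39 windows in all. The motif used was the p53 consensus, 2 decamers with C at position 4 and G at position 7, at most 2 mismatches in all, and up to 13 bases between them; the decamer is its own reverse complement, so both strands are read at once. A site was found in 5 of 27 members (18.5%), against 3.62% of all 27305 genes with a window. The sites are shown because 3 of the 5 genes, DDB2, FDXR and FAS, are among those whose RNA changed below. Capitals mark the decamers and lower case the bases between them, each 5′ to 3′ on the strand of its gene.

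DDB2 site: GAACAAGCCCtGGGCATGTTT
FDXR site: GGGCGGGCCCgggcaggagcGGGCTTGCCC
FAS site: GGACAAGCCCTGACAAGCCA
AEN site: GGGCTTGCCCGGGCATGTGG
MDM2 site: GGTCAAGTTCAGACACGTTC

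The DDB2 site, at chr11:47214979-47214999 on the plus strand, had 0 mismatches and began at base 6 after the start on which its window is set. Windows at other starts of DDB2, FDXR and FAS, and at some of MDM2, held no site. The DDB2, FDXR and FAS sites lie inside the gene spans given below, downstream of the first base. Those of FDXR and FAS still come before the start on which their windows are set. The other 4 sites had 2 mismatches each. They lay at chr17:74872996-74873025 on the minus strand for FDXR, chr10:88991309-88991328 for FAS, chr15:88621306-88621325 for AEN and chr12:68808923-68808942 for MDM2, the last 3 on the plus strand. A match is a string of letters in the reference, and binding was not measured. No site was found in these windows for CDKN1A, TP53I3, ZMAT3 or EDA2R, which says only that the letters are not in this short stretch. For the 3 genes that changed, the bases before the start on which the window with the site is set are given, with the site in place. For DDB2 the stretch runs on past that start to the end of the site. The stretch is 276 bases for DDB2 (chr11:47214724-47214999, plus strand), 250 for FDXR (chr17:74872995-74873244, minus strand) and 250 for FAS (chr10:88991181-88991430, plus strand).

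DDB2 promoter: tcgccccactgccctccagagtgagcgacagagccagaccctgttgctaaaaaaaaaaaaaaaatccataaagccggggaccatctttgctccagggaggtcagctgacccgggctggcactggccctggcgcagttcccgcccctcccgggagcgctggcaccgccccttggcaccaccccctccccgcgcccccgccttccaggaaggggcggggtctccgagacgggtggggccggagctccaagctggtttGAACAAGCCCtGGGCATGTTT
FDXR promoter: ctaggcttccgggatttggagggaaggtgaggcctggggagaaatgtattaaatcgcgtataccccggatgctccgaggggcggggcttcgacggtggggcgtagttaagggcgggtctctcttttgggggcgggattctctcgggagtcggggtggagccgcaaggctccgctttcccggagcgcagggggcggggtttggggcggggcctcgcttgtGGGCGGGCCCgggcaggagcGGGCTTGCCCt
FAS promoter: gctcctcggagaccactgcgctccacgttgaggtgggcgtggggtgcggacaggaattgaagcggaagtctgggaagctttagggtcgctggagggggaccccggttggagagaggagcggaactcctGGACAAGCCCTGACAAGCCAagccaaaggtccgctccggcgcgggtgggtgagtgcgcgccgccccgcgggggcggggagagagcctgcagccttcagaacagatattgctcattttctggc

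Values are TPM, transcript abundances scaled per length and to the same total in each library by the authors, so they are shares of the RNA. Read totals are not in the tables; the ratio of deposited coverage to FPKM put relative depth between 1 and 2.14, and 14758 to 16026 genes reached 1 TPM. The mitochondrial share of TPM was 13.3% to 21.4%, and replicate 2 had the higher share in each group. All 10 adrenergic markers reached 1 TPM, with sums of 4276 and 5070 TPM in induced against 6257 and 6844 TPM in untreated shRCOR2, 4425 and 4035 against 7064 and 7337 TPM in shRCOR1, and 5745 and 5303 against 6489 and 6369 TPM in shCTRL libraries. These sums were lower in induced than in untreated libraries of all 3 lines. CHGA was their largest part, with 1376 and 1492 TPM in induced, against 2854 and 2807 TPM in untreated shRCOR2 libraries. Not every marker was lower. GATA3 had 258 and 268 TPM induced, against 208 and 175 TPM untreated in shRCOR2, and PHOX2A 470 and 320, against 288 and 238 TPM in shRCOR1. Fibroblast markers summed to 8.82 to 123 TPM, mostly COL1A1 and more in replicate 2 of each group, with COL1A2 and DCN near 0, and leukocyte markers to at most 0.503 TPM. Epithelial markers summed to 5.72 to 12.8 TPM with CDH1 at 0, and endothelial markers to at most 2.59 TPM with PECAM1 at 0. The part of these differences in the results was not tested.

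The targeted transcripts checked the labels. RCOR2 had 17.7 and 20.5 TPM in induced shRCOR2 libraries, against 55.4 and 49.9 TPM in untreated ones (change −1.42 ± 0.11, SE), and RCOR1 had 4.795 and 5.07 TPM in induced shRCOR1 libraries, against 8.32 and 9.08 TPM in untreated ones (−0.71 ± 0.12); both fell by the test described next. RCOR2 also fell in the shRCOR1 line, with 25.99 and 26.3 TPM induced, against 51.4 and 50.5 TPM untreated (−0.94 ± 0.11; limma adjusted p = 0.00278), so RCOR2 RNA fell in both knockdown lines. The difference between their RCOR2 changes was −0.48 ± 0.16 (adjusted p = 0.0938, and 0.0339 with the block described below). In shCTRL cells RCOR2 had 49.7 and 42.7 TPM induced, against 54.6 and 50.2 TPM untreated. RCOR1 had 8.83 and 9.15 TPM induced there, against 10.7 and 8.99 TPM untreated, and its groups overlapped. Relative to shCTRL, the shRCOR1 changes of RCOR1 (−0.60) and RCOR2 (−0.75) were called only with the block (limma adjusted p = 0.0452 and 0.0163). KDM1A, the demethylase, had 278 and 277 TPM in induced shRCOR2, 282 and 270.3 in induced shRCOR1 and 287 and 291 in induced shCTRL libraries, against 313 and 323, 311 and 320.0 and 317 and 322 TPM in the untreated ones; it was lower in induced libraries of all 3 lines without overlap and was not called in any, but fell in shRCOR2 and shRCOR1 with the block (−0.19 in each, adjusted p = 0.0257 and 0.0335).

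Changes are differences of log2(TPM + 1), induced minus untreated, with their standard error (SE), and understate the fold of sparse genes. They were fitted for all 16842 genes with 6 group means in limma, and a gene was called, or said to rise or fall, when its p, adjusted over the 16842 genes by the Benjamini-Hochberg method, was below 0.05. The replicate numbers turned out to pair the samples across groups, so a fit with the replicate number as a block was also run. It is given wherever it alters a call of a member, and for the other lists mostly as counts. Each printed change and SE is that of the fit without the block, also beside a p-value of the block or another alternative. In untreated cells the members were plentiful: 30 of 33 averaged at least 1 TPM, 20 at least 10 TPM and 4 at least 50 TPM. The highest was CCNG1, the cyclin G1 gene, with a mean of 99.1 ± 8.96 TPM (SD, n = 6 untreated libraries), and its 6 values did not overlap those of AEN, at 80.9 ± 7.97 TPM; those of AEN and TRIAP1, at 61.8 ± 5.22 TPM, overlapped. FAS, at 1.59 ± 0.157 TPM, was the lowest of the 30.

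**Figure D1:**
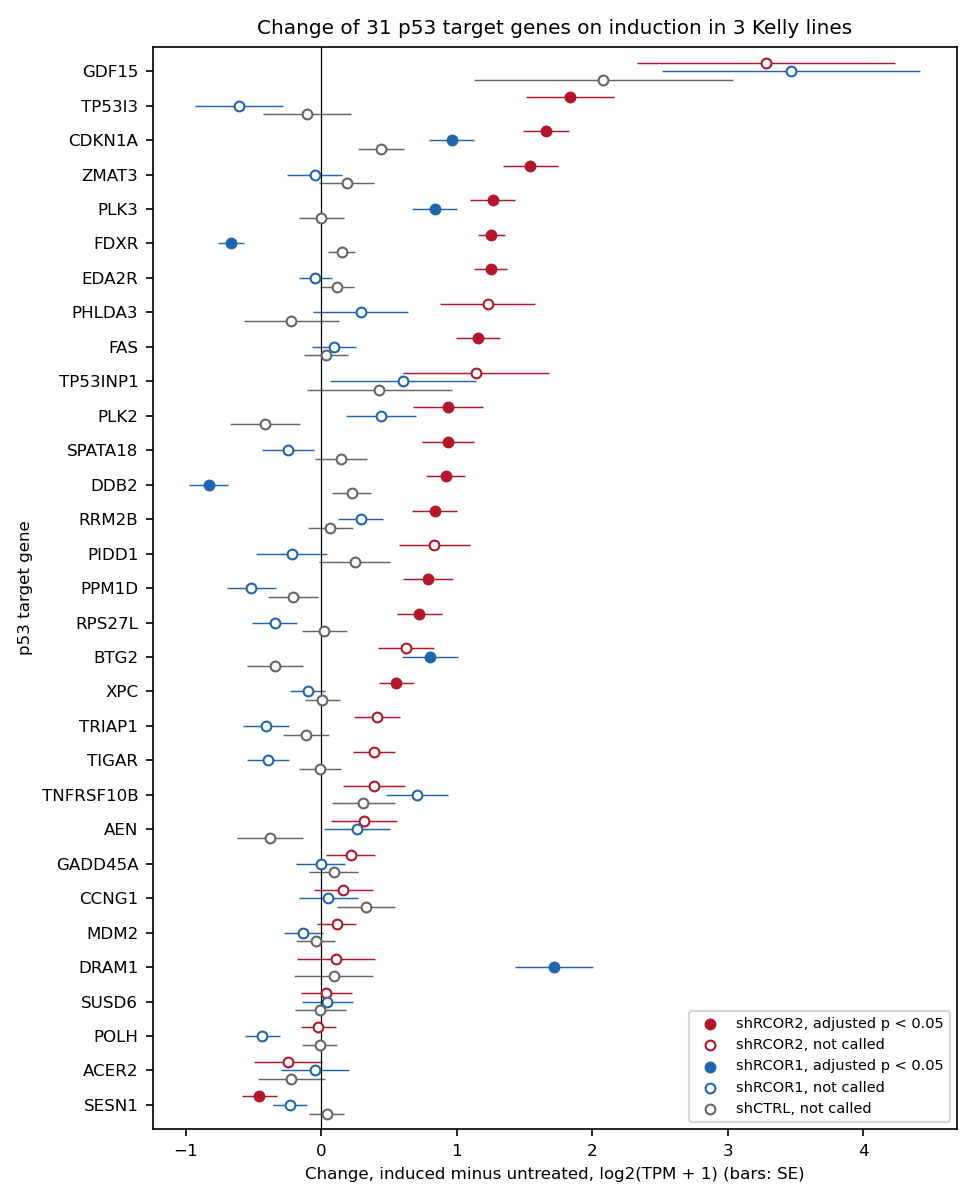
Change on induction of the 31 tested members in each line, as a difference of log2(TPM + 1) with bars for the SE, ordered by the change in shRCOR2 cells; filled points are called. Points for shRCOR2 lie right of 0 for 28 of 31 genes, with a median of 0.79, those for shRCOR1 lie on both sides, and no shCTRL point is filled.

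On induction of the RCOR2 hairpin most of the p53 targets were higher. Of the 31 tested, 14 rose, as did 7.81% of all genes tested, and 1 fell, as did 6.47% of all genes. The median change was 0.79, against 0.07 over all genes. The 14 were CDKN1A, PLK2, PLK3, PPM1D, RPS27L, FAS, EDA2R, ZMAT3, TP53I3, DDB2, XPC, RRM2B, FDXR and SPATA18, and SESN1 fell. The groups did not overlap, induced above untreated, for 27 of the 31 members (37.6% of all genes) and untreated above induced for 1 (25.7%). The change was positive for 28 members in replicate pair 1 and 27 in replicate pair 2.

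With the replicate block, 22 members rose and 1 fell, among 21.4% and 14.8% of all genes (36.2% in either direction); BTG2, GDF15, PHLDA3, PIDD1, TIGAR, TNFRSF10B, TP53INP1 and TRIAP1 were added to the 14. Of the 15 calls without the block, 6, 8, 8 and 6 remained when induced replicate 1, induced replicate 2, untreated replicate 1 or untreated replicate 2 was left out, fits in which a lone library is assumed to vary like the other groups. CDKN1A, EDA2R, FAS, FDXR, PLK3 and ZMAT3 kept their calls under each of the 4, and the changes of PLK2, PPM1D, RPS27L, RRM2B, SESN1, SPATA18 and XPC were not called under any of them. Calls for DDB2 and TP53I3 ended without induced replicate 1 or untreated replicate 2. A change in the share of cells in a state cannot be told apart from a change of RNA per cell in such bulk samples.

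On induction of the RCOR1 hairpin the 31 genes split in direction, as did the genes tested as a whole. Of the 31, 4 rose, as did 4.98% of all genes, and 2 fell, as did 3.64% (8.62% in either direction), and the median change was −0.04, against 0.04 over all genes. CDKN1A, PLK3, BTG2 and DRAM1 rose, and DDB2 and FDXR fell. DRAM1 passed the filter only through its induced shRCOR1 libraries and so had to differ, which leaves 3 rises without it. The groups did not overlap for 10 members with induced above untreated (29.4% of all genes) and for 10 with untreated above induced (23.7%). Both counts are near what those shares give for 31 genes. In replicate pair 1 the change was positive for 14 of 31 members and in pair 2 for 15.

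With the replicate block 6 members rose and 7 fell in the shRCOR1 line, among 15.4% and 12.1% of all genes. GDF15 and TNFRSF10B joined the rises, and POLH, PPM1D, TIGAR, TP53I3 and TRIAP1 joined the falls. Of the 6 calls without the block, 3, 2, 3 and 0 remained without induced replicate 1, induced replicate 2, untreated replicate 1 or untreated replicate 2. With FPKM in place of TPM 2 members rose and 3 fell, and with median-of-ratios scaling 5 rose and 4 fell.

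In shCTRL cells, which received doxycycline and expressed the control hairpin, 0 of 31 members were called, as were 0.0% of all genes, and the median change was 0.03, against −0.02 over all genes. At an unadjusted p below 0.05 limma gave 1 member, CDKN1A, and 5.57% of all genes, and with the replicate block 5 members, CCNG1, CDKN1A, GDF15, PPM1D and TNFRSF10B, and 15.7% of all genes. Both member counts are near what those shares give for 31 genes. With the block 0 members and 0.0594% of all genes passed adjustment. The groups did not overlap for 3 members upward (7.99% of all genes) and for 2 downward (15.6%). Before induction, 0 members and 0.0% of all genes differed in untreated shRCOR2 against untreated shCTRL cells, or in untreated shRCOR1 against untreated shCTRL cells, in limma with or without the block. At an unadjusted p below 0.05 limma gave 1 member, BTG2, for untreated shRCOR2 and 0 for untreated shRCOR1 cells, with or without the block; over all genes it gave 123 and 114 (339 and 446 with the block).

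Of the 6 arrest genes, 3 rose in shRCOR2 cells (4 with the block) and 3 in shRCOR1 cells (3 with the block), beside 7.81% (21.4%) and 4.98% (15.4%) of all genes. CDKN1A (ENSG00000124762.14, chr6:36676460-36687337, plus strand, GRCh38), which encodes the cyclin-dependent kinase inhibitor p21, had 136 and 121 TPM in induced shRCOR2 libraries, against 35.4 and 45.1 TPM in untreated ones. In the other lines it had 70.4 and 85.3 TPM induced, against 36.9 and 41.8 TPM untreated in shRCOR1, and 52.1 and 54.7 TPM induced, against 34.2 and 44.8 TPM untreated in shCTRL libraries. Induced libraries lay above untreated ones in all 3 lines, highest in shRCOR2 and lowest in shCTRL. The means were 129 ± 10.8 TPM in induced and 40.3 ± 6.87 TPM in untreated shRCOR2 cells (SD, n = 2 each), a ratio of 3.196. The change was 1.66 ± 0.17 in shRCOR2 (limma adjusted p = 0.00103), 0.96 ± 0.17 in shRCOR1 (adjusted p = 0.0115) and 0.44 ± 0.17 in shCTRL cells (adjusted p = 0.871).

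PLK3 and PLK2, which encode stress-responsive polo-like kinases, were lower in level than CDKN1A. PLK3 had 18.8 and 17.1 TPM in induced shRCOR2 libraries, against 6.79 and 6.92 TPM in untreated ones, and 13.8 and 14.8 TPM induced, against 7.504 and 7.62 TPM untreated in shRCOR1. Its shCTRL libraries had 7.98 and 5.32 TPM induced, against 6.92 and 6.18 TPM untreated, where the groups overlapped, while in both knockdown lines every induced library exceeded every untreated one. The changes were 1.27 ± 0.17 in shRCOR2 (limma adjusted p = 0.00282) and 0.84 ± 0.17 in shRCOR1 (adjusted p = 0.0182). PLK2 had 40.9 and 33.8 TPM in induced shRCOR2 libraries, against 23.3 and 15.4 TPM in untreated ones. In shRCOR1 PLK2 had 17.7 and 27.1 TPM induced, against 16.3 and 15.4 TPM untreated, and in shCTRL 17.02 and 11.98 TPM induced, against 20.98 and 17.95 TPM untreated. PLK2 rose in shRCOR2 (0.94 ± 0.26, limma adjusted p = 0.04399), a call lost with median-of-ratios scaling (adjusted p = 0.0818) and with no filter on low values (0.103), and had 0.44 ± 0.26 in shRCOR1 (adjusted p = 0.352).

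BTG2, for an antiproliferative factor that recruits messenger RNA deadenylases, had 45.3 and 42.3 TPM in induced shRCOR2 libraries, against 28.4 and 27.7 TPM in untreated ones. In shRCOR1 BTG2 had 56.2 and 56.7 TPM induced, against 40.6 and 25.01 TPM untreated, and in shCTRL 27.4 and 35.8 TPM induced, against 42.02 and 38.2 TPM untreated. Induced libraries were the higher ones in both knockdown lines and the lower ones in shCTRL, with the untreated shRCOR1 libraries wide apart. BTG2 rose in shRCOR1 (0.80 ± 0.21, limma adjusted p = 0.0473), which missed the threshold with FPKM, with median-of-ratios scaling, with no filter on low values and without mitochondrial genes (adjusted p = 0.0541 to 0.0981), and in shRCOR2 only with the block (0.63 ± 0.21, adjusted p = 0.0766 without and 0.0337 with it). The remaining arrest genes, GADD45A for a growth arrest and DNA damage protein and CCNG1, were not called in any line, with changes of 0.22 ± 0.18 and 0.16 ± 0.22 in shRCOR2 and levels over all libraries of 48.00 to 74.1 TPM (mean 62.1) and 89.5 to 163 TPM (mean 107).

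**Figure D2:**
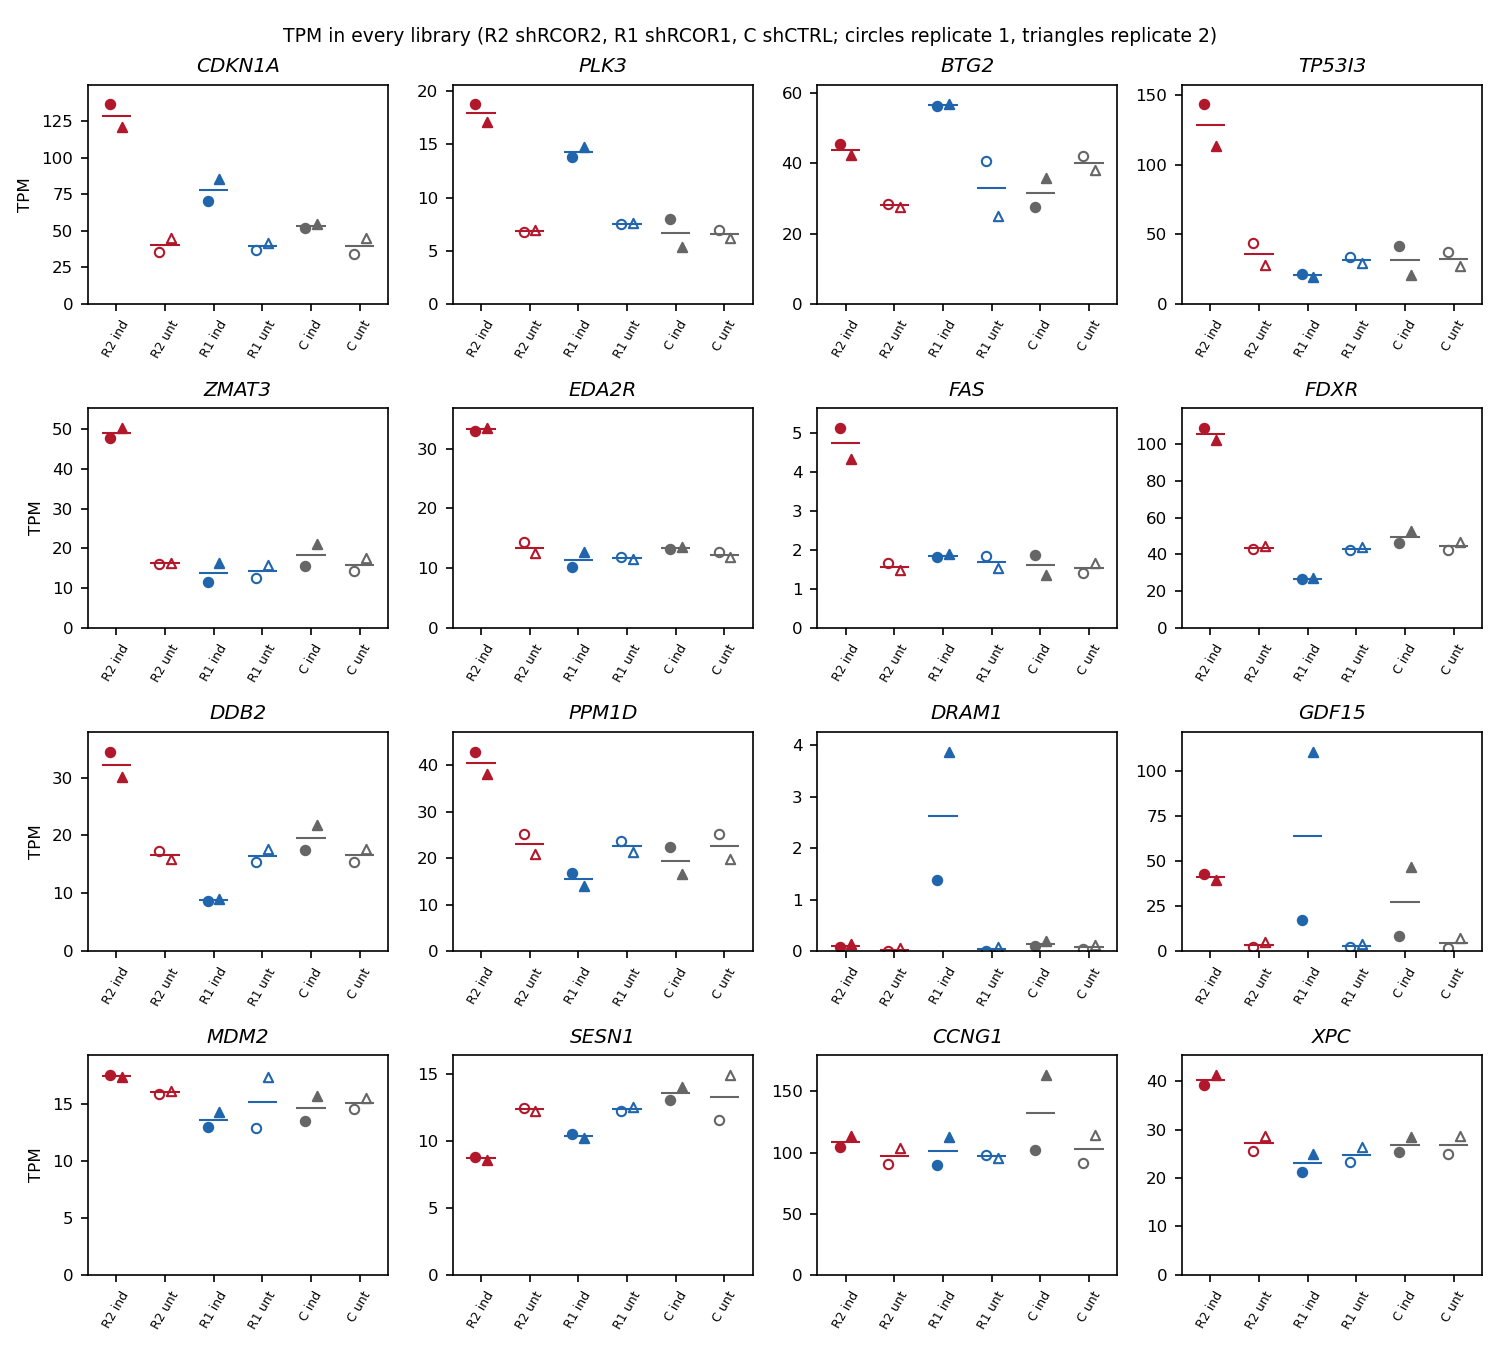
TPM of 16 members in each of the 12 libraries, with induced (ind) left of untreated (unt) in each line, circles for replicate 1, triangles for replicate 2 and lines for the group mean; each vertical axis starts at 0. Induced shRCOR2 libraries stand above the other groups for TP53I3, ZMAT3, EDA2R, FAS and FDXR, and induced shRCOR1 libraries stand lowest for FDXR and DDB2.

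Among the 6 genes that act back on p53, which include CCNG1 again, 2 rose in shRCOR2 cells (4 with the block), beside 7.81% (21.4%) of all genes, and 0 in shRCOR1 cells, where 2 fell with the block, beside 12.1% of all genes. MDM2, the main ubiquitin ligase of p53, had 17.6 and 17.4 TPM in induced shRCOR2 libraries, against 15.9 and 16.2 TPM in untreated ones. In shRCOR1 MDM2 had 12.97 and 14.3 TPM induced, against 12.96 and 17.4 TPM untreated, and in shCTRL 13.6 and 15.8 TPM induced, against 14.6 and 15.6 TPM untreated. The induced shRCOR2 libraries were a little above the untreated ones, and in the other lines the groups overlapped. It was not called in any line, with changes of 0.11 ± 0.15, −0.13 ± 0.15 and −0.04 ± 0.15 in shRCOR2, shRCOR1 and shCTRL cells (limma adjusted p = 0.664, 0.655 and 0.9996).

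PPM1D, for the phosphatase WIP1 that removes activating phosphates from p53, had 42.9 and 38.1 TPM in induced shRCOR2 libraries, against 25.3 and 20.97 TPM in untreated ones. In shRCOR1 PPM1D had 16.9 and 14.1 TPM induced, against 23.8 and 21.3 TPM untreated, and in shCTRL 22.5 and 16.5 TPM induced, against 25.3 and 19.9 TPM untreated. Induced libraries were above untreated ones in shRCOR2 and below them in shRCOR1, and the shCTRL groups overlapped. PPM1D rose in shRCOR2 (0.79 ± 0.18, limma adjusted p = 0.0252), a call lost with median-of-ratios scaling (adjusted p = 0.0938) and with no filter (0.0554), and fell in shRCOR1 only with the block (−0.52 ± 0.18, adjusted p = 0.127 without and 0.00378 with it). RPS27L, a relative of a ribosomal protein that binds MDM2, had 38.6 and 33.9 TPM in induced shRCOR2 libraries, against 23.3 and 19.8 TPM in untreated ones. In shRCOR1 RPS27L had 14.8 and 15.5 TPM induced, against 19.5 and 19.4 TPM untreated, and in shCTRL 24.8 and 17.5 TPM induced, against 19.05 and 22.2 TPM untreated. RPS27L rose in shRCOR2 (0.72 ± 0.17, limma adjusted p = 0.0242), lost with median-of-ratios scaling (adjusted p = 0.07002), and was not called in shRCOR1 (−0.34 ± 0.17), where both induced libraries were below the untreated ones.

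TRIAP1, for a small survival protein of mitochondria, had 91.1 and 77.3 TPM in induced shRCOR2 libraries, against 68.4 and 57.9 TPM in untreated ones. In shRCOR1 TRIAP1 had 49.4 and 43.6 TPM induced, against 63.3 and 60.4 TPM untreated, and in shCTRL 64.5 and 47.8 TPM induced, against 66.5 and 54.6 TPM untreated. Induced libraries were above untreated ones in shRCOR2, below them in shRCOR1, and overlapped them in shCTRL. Without the block its changes, 0.41 ± 0.17 in shRCOR2 and −0.41 ± 0.17 in shRCOR1, were not called (limma adjusted p = 0.144 and 0.187). With the block TRIAP1 rose in shRCOR2 (adjusted p = 0.00733) and fell in shRCOR1 (adjusted p = 0.00987). PIDD1, the scaffold of a caspase-activating complex, had 18.6 and 17.05 TPM in induced shRCOR2 libraries, against 8.96 and 10.2 TPM in untreated ones. In shRCOR1 PIDD1 had 7.04 and 9.63 TPM induced, against 8.54 and 11.1 TPM untreated, and in shCTRL 8.93 and 12.96 TPM induced, against 6.87 and 11.5 TPM untreated. Only the shRCOR2 groups of PIDD1 were apart, and its change there was 0.84 ± 0.26 (limma adjusted p = 0.0664); it was called with the block (adjusted p = 0.00591), with FPKM (0.0301) and with median-of-ratios scaling (0.0416).

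Of the 9 tested genes for death and its receptors, which include PIDD1 again, 4 rose in shRCOR2 cells (8 with the block) and 0 in shRCOR1 cells, where 1 rose and 1 fell with the block. Over all genes 7.81% rose in shRCOR2 (21.4% with the block), and in shRCOR1 15.4% rose and 12.1% fell with the block, so the shRCOR1 count is near that of all genes. TP53I3 (ENSG00000115129.14, chr2:24077433-24085861, minus strand), for a quinone oxidoreductase linked to oxidative stress in p53-dependent death, had 143 and 113 TPM in induced shRCOR2 libraries, against 43.5 and 28.2 TPM in untreated ones. It had 21.5 and 19.3 TPM induced, against 34.04 and 29.3 TPM untreated in shRCOR1, and 41.8 and 20.7 TPM induced, against 37.4 and 26.96 TPM untreated in shCTRL. The induced shRCOR2 libraries were far above all others, the induced shRCOR1 libraries were below their untreated ones, and the shCTRL groups overlapped. TP53I3 rose in shRCOR2 (1.83 ± 0.33, limma adjusted p = 0.00913; ratio of means 3.58) and in shRCOR1 had −0.61 ± 0.33 (adjusted p = 0.306, and 0.03396 with the block). FAM228B, which overlaps TP53I3 on the opposite strand, had 4.59 and 7.19 TPM in induced and 2.94 and 4.79 TPM in untreated shRCOR2 libraries.

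ZMAT3 (ENSG00000172667.11, chr3:178960121-179072215, minus strand), for a zinc finger protein that binds RNA and regulates splicing, had 47.9 and 50.3 TPM in induced shRCOR2 libraries, against 16.00 and 16.4 TPM in untreated ones. In shRCOR1 ZMAT3 had 11.4 and 16.2 TPM induced, against 12.6 and 15.8 TPM untreated, and in shCTRL 15.6 and 21.1 TPM induced, against 14.3 and 17.4 TPM untreated. Outside induced shRCOR2 cells no library passed 21.1 TPM. ZMAT3 rose in shRCOR2 (1.54 ± 0.20, limma adjusted p = 0.00274; ratio of means 3.03) and had −0.05 ± 0.20 in shRCOR1 (adjusted p = 0.923). EDA2R (ENSG00000131080.15, chrX:66595637-66639298, minus strand), a receptor of the tumour necrosis factor family for an ectodysplasin, had 33.1 and 33.5 TPM in induced shRCOR2 libraries, against 14.3 and 12.5 TPM in untreated ones. In shRCOR1 EDA2R had 10.2 and 12.6 TPM induced, against 11.9 and 11.6 TPM untreated, and in shCTRL 13.2 and 13.5 TPM induced, against 12.6 and 11.9 TPM untreated. Its 10 libraries other than induced shRCOR2 lay within 10.2 to 14.3 TPM. EDA2R rose in shRCOR2 (1.25 ± 0.12, limma adjusted p = 0.000903) and had −0.04 ± 0.12 in shRCOR1 (adjusted p = 0.885).

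FAS (ENSG00000026103.22, chr10:88990531-89017059, plus strand), the gene of a death receptor, was sparse, with 5.14 and 4.35 TPM in induced shRCOR2 libraries, against 1.67 and 1.47 TPM in untreated ones. In shRCOR1 FAS had 1.81 and 1.89 TPM induced, against 1.83 and 1.52 TPM untreated, and in shCTRL 1.86 and 1.34 TPM induced, against 1.401 and 1.66 TPM untreated. Only the induced shRCOR2 libraries passed 2 TPM. FAS rose in shRCOR2 (1.16 ± 0.16, limma adjusted p = 0.00375; ratio of means 3.02) and had 0.09 ± 0.16 in shRCOR1 (adjusted p = 0.805). ACTA2, for smooth muscle actin, overlaps FAS on the opposite strand and had 18.8 and 17.1 TPM in induced shRCOR2 libraries, against 1.59 and 1.98 TPM in untreated ones. In shRCOR1 ACTA2 had 2.00 and 4.57 TPM induced, against 1.27 and 2.47 TPM untreated. The kit kept strand, but the sources used here do not state the strand setting of the counting, so reads of the pair may be shared, and the part of this in the FAS values was not tested. In all, 7 members overlap an opposite-strand gene that averaged at least 1 TPM. The same limit holds for the others, TP53I3, TP53INP1, TNFRSF10B, XPC, POLH and RPS27L. RHOBTB2, over TNFRSF10B, had 15.3 and 16.9 TPM in induced, against 9.11 and 8.91 TPM in untreated shRCOR2 libraries.

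TNFRSF10B, a receptor for the death ligand TRAIL, had 45.7 and 51.9 TPM in induced shRCOR2 libraries, against 35.7 and 38.4 TPM in untreated ones. In shRCOR1 TNFRSF10B had 45.5 and 68.4 TPM induced, against 30.9 and 37.02 TPM untreated, and in shCTRL 38.1 and 57.2 TPM induced, against 34.9 and 40.2 TPM untreated. Induced libraries were above untreated ones in both knockdown lines, and the shCTRL groups overlapped. Without the block its changes were 0.39 ± 0.23 in shRCOR2 and 0.71 ± 0.23 in shRCOR1 (limma adjusted p = 0.305 and 0.0999). With the block TNFRSF10B rose in both (adjusted p = 0.0442 and 0.00486), and in shRCOR1 it was also called with median-of-ratios scaling (adjusted p = 0.0457). PHLDA3, for a pleckstrin-domain inhibitor of the kinase AKT, had 75.4 and 58.7 TPM in induced shRCOR2 libraries, against 33.9 and 22.8 TPM in untreated ones. In shRCOR1 PHLDA3 had 43.2 and 24.7 TPM induced, against 21.3 and 33.03 TPM untreated, and in shCTRL 28.3 and 49.2 TPM induced, against 42.9 and 44.5 TPM untreated. Both induced shRCOR2 libraries were above every other, and the remaining groups overlapped; its change of 1.23 ± 0.35 lay just outside the threshold (limma adjusted p = 0.05003, 0.0241 with the block and 0.03201 with FPKM). TP53INP1, for a nuclear stress protein, had 12.01 and 14.3 TPM in induced shRCOR2 libraries, against 3.94 and 7.24 TPM in untreated ones. In shRCOR1 TP53INP1 had 6.74 and 8.54 TPM induced, against 3.58 and 6.01 TPM untreated, and in shCTRL 5.33 and 15.6 TPM induced, against 3.78 and 11.1 TPM untreated. Replicate 2 exceeded replicate 1 in all 6 groups, and TP53INP1 rose only in shRCOR2 and only with the block (1.14 ± 0.54, limma adjusted p = 0.197 without and 0.0141 with it). AEN, the gene of an apoptosis-enhancing nuclease, was not called in any line (0.31 ± 0.24, 0.26 ± 0.24 and −0.38 ± 0.24 in shRCOR2, shRCOR1 and shCTRL); its promoter holds one of the sites printed above. It had 42.2 to 109 TPM over all libraries (mean 84.5). PERP reached at most 0.0516 TPM, in an induced shRCOR1 library.

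Of the 4 DNA repair and nucleotide genes, 3 rose in shRCOR2 cells, and in shRCOR1 cells 1 fell (2 with the block); of all genes 7.81% rose in shRCOR2, and 3.64% fell in shRCOR1 (12.1% with the block). DDB2 (ENSG00000134574.12, chr11:47214465-47239217, plus strand), which encodes a sensor of ultraviolet damage for nucleotide excision repair, had 34.5 and 30.03 TPM in induced shRCOR2 libraries, against 17.3 and 15.9 TPM in untreated ones. In shRCOR1 it had 8.64 and 8.96 TPM induced, against 15.3 and 17.6 TPM untreated, and in shCTRL 17.5 and 21.8 TPM induced, against 15.5 and 17.7 TPM untreated. Induced libraries were above untreated ones in shRCOR2, below them in shRCOR1, and overlapped them in shCTRL. DDB2 rose in shRCOR2 (0.92 ± 0.14, limma adjusted p = 0.00555) and fell in shRCOR1 (−0.83 ± 0.14, adjusted p = 0.0101). This is the gene whose printed site has 0 mismatches.

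XPC, which recognises DNA distortions in the same pathway, had 39.3 and 41.3 TPM in induced shRCOR2 libraries, against 25.5 and 28.8 TPM in untreated ones. In shRCOR1 XPC had 21.3 and 25.1 TPM induced, against 23.3 and 26.5 TPM untreated, and in shCTRL 25.4 and 28.4 TPM induced, against 24.98 and 28.6 TPM untreated. Its shRCOR2 groups were clearly apart and the others overlapped. XPC rose in shRCOR2 (0.55 ± 0.13, limma adjusted p = 0.0251), lost without mitochondrial genes (adjusted p = 0.0676), and had −0.10 ± 0.13 in shRCOR1. RRM2B, for a p53-inducible subunit of ribonucleotide reductase, had 25.5 and 26.3 TPM in induced shRCOR2 libraries, against 12.9 and 15.2 TPM in untreated ones. In shRCOR1 RRM2B had 14.6 and 17.8 TPM induced, against 12.3 and 13.8 TPM untreated, and in shCTRL 12.3 and 16.7 TPM induced, against 12.8 and 14.6 TPM untreated. Both induced shRCOR2 libraries exceeded every other library. RRM2B rose in shRCOR2 (0.84 ± 0.17, limma adjusted p = 0.0141) and had 0.29 ± 0.17 in shRCOR1 (adjusted p = 0.345). POLH, the polymerase that copies past ultraviolet lesions, had 8.49 and 8.68 TPM in induced shRCOR2 libraries, against 8.65 and 8.81 TPM in untreated ones. In shRCOR1 POLH had 6.18 and 5.83 TPM induced, against 8.13 and 8.82 TPM untreated, and in shCTRL 7.84 and 9.23 TPM induced, against 7.94 and 9.28 TPM untreated. The groups of POLH overlapped in shRCOR2 and shCTRL. In shRCOR1 induced libraries were the lower ones, and its change of −0.44 ± 0.13 was not called (limma adjusted p = 0.0752). It fell there with the block, with FPKM and with median-of-ratios scaling (adjusted p = 0.0164, 0.0355 and 0.02801).

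The 8 genes of metabolism, redox balance and autophagy, which include TP53I3 again, split: 3 rose and 1 fell in shRCOR2 cells (4 and 1 with the block), and 1 rose and 1 fell in shRCOR1 cells (1 and 3 with the block), the rise being that of DRAM1. Of all genes 7.81% rose and 6.47% fell in shRCOR2 (21.4% and 14.8% with the block), and 4.98% and 3.64% in shRCOR1 (15.4% and 12.1%). FDXR (ENSG00000161513.12, chr17:74862497-74873031, minus strand), the mitochondrial ferredoxin reductase, had 109 and 103 TPM in induced shRCOR2 libraries, against 42.7 and 44.6 TPM in untreated ones. In shRCOR1 it had 26.5 and 26.99 TPM induced, against 42.2 and 43.9 TPM untreated, and in shCTRL 46.1 and 52.7 TPM induced, against 42.2 and 46.5 TPM untreated. The 6 untreated libraries lay close together, the induced shRCOR2 ones far above them and the induced shRCOR1 ones below. FDXR rose in shRCOR2 (1.26 ± 0.10, limma adjusted p = 0.000367; ratio of means 2.42) and fell in shRCOR1 (−0.67 ± 0.10, adjusted p = 0.00561; ratio of means 0.621). In shCTRL cells the change was 0.15 ± 0.10 (adjusted p = 0.958).

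SPATA18, for a protein of mitochondrial quality control, had 6.84 and 6.48 TPM in induced shRCOR2 libraries, against 3.08 and 2.93 TPM in untreated ones. In shRCOR1 SPATA18 had 1.81 and 2.38 TPM induced, against 2.66 and 2.64 TPM untreated, and in shCTRL 3.05 and 4.68 TPM induced, against 2.91 and 3.81 TPM untreated. Both induced shRCOR2 libraries exceeded the rest, and the shCTRL groups overlapped. SPATA18 rose in shRCOR2 (0.94 ± 0.19, limma adjusted p = 0.0165) and had −0.25 ± 0.19 in shRCOR1 (adjusted p = 0.511). TIGAR, a phosphatase that lowers a glycolytic regulator, had 9.89 and 10.6 TPM in induced shRCOR2 libraries, against 7.24 and 7.93 TPM in untreated ones. In shRCOR1 TIGAR had 4.64 and 5.68 TPM induced, against 6.49 and 7.66 TPM untreated, and in shCTRL 6.95 and 8.102 TPM induced, against 6.89 and 8.26 TPM untreated. Its induced libraries stood on opposite sides of the untreated ones in the knockdown lines. Without the block the changes were 0.39 ± 0.15 in shRCOR2 and −0.39 ± 0.15 in shRCOR1 (limma adjusted p = 0.128 and 0.161). With the block TIGAR rose in shRCOR2 (adjusted p = 0.0132) and fell in shRCOR1 (adjusted p = 0.0164). TIGAR was also called in shRCOR2 with FPKM (adjusted p = 0.0408) and in shRCOR1 with median-of-ratios scaling (0.0425).

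SESN1, for a sestrin that restrains growth signalling, was the only member to fall in shRCOR2, with 8.83 and 8.603 TPM in induced shRCOR2 libraries, against 12.5 and 12.2 TPM in untreated ones. In shRCOR1 SESN1 had 10.5 and 10.2 TPM induced, against 12.2 and 12.5 TPM untreated, and in shCTRL 13.1 and 14.02 TPM induced, against 11.6 and 14.9 TPM untreated. Induced libraries were below untreated ones in both knockdown lines. It fell in shRCOR2 (−0.46 ± 0.13, limma adjusted p = 0.0471), a call lost without mitochondrial genes (adjusted p = 0.0867) and with no filter (0.0569), and had −0.23 ± 0.13 in shRCOR1 (adjusted p = 0.329). DRAM1, for a lysosomal membrane protein of autophagy, passed the filter only through the induced shRCOR1 libraries, which had 1.39 and 3.87 TPM, against 0 and 0.0735 TPM in untreated ones. It had 0.085 and 0.134 TPM in induced shRCOR2 libraries, against 0 and 0.0609 TPM in untreated ones, and 0.0925 and 0.196 TPM induced, against 0.0334 and 0.115 TPM untreated in shCTRL. DRAM1 rose in shRCOR1 (1.72 ± 0.29, limma adjusted p = 0.00955), but a gene that enters only through the group where it is high had to differ, and no fold is given against values listed near 0. ACER2, a ceramidase gene, and SUSD6 were not called in any line, with levels over all libraries of 2.01 to 3.67 TPM (mean 2.67) and 5.199 to 7.06 TPM (mean 6.16).

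GDF15, a secreted stress cytokine of the transforming growth factor family, had the largest changes by value and the largest SE of the tested members in all 3 lines. It had 43.01 and 39.8 TPM in induced shRCOR2 libraries, against 2.23 and 4.85 TPM in untreated ones. In shRCOR1 GDF15 had 17.05 and 111 TPM induced, against 2.46 and 3.76 TPM untreated, and in shCTRL 8.396 and 46.5 TPM induced, against 1.97 and 7.38 TPM untreated. In all 3 lines both induced libraries were above both untreated ones, but the induced replicates of shRCOR1 and shCTRL were far apart. The changes were 3.28 ± 0.96, 3.47 ± 0.96 and 2.08 ± 0.96 (limma adjusted p = 0.05296, 0.0595 and 0.909); with the block it rose in both knockdown lines (adjusted p = 0.00347 and 0.00344) and not in shCTRL (adjusted p = 0.184). GDF15 was also called with median-of-ratios scaling in shRCOR2 and shRCOR1 (adjusted p = 0.0465 and 0.0473), with FPKM in shRCOR2 (0.0428), and in shRCOR1 without induced replicate 1. GDF15 is also known as a target of the stress factor ATF4, whose genes had positive changes in 13, 16 and 16 of 16 in shRCOR2, shRCOR1 and shCTRL cells, with medians of 0.89, 1.58 and 0.91; the part of this in the GDF15 values was not tested.

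**Figure D3:**
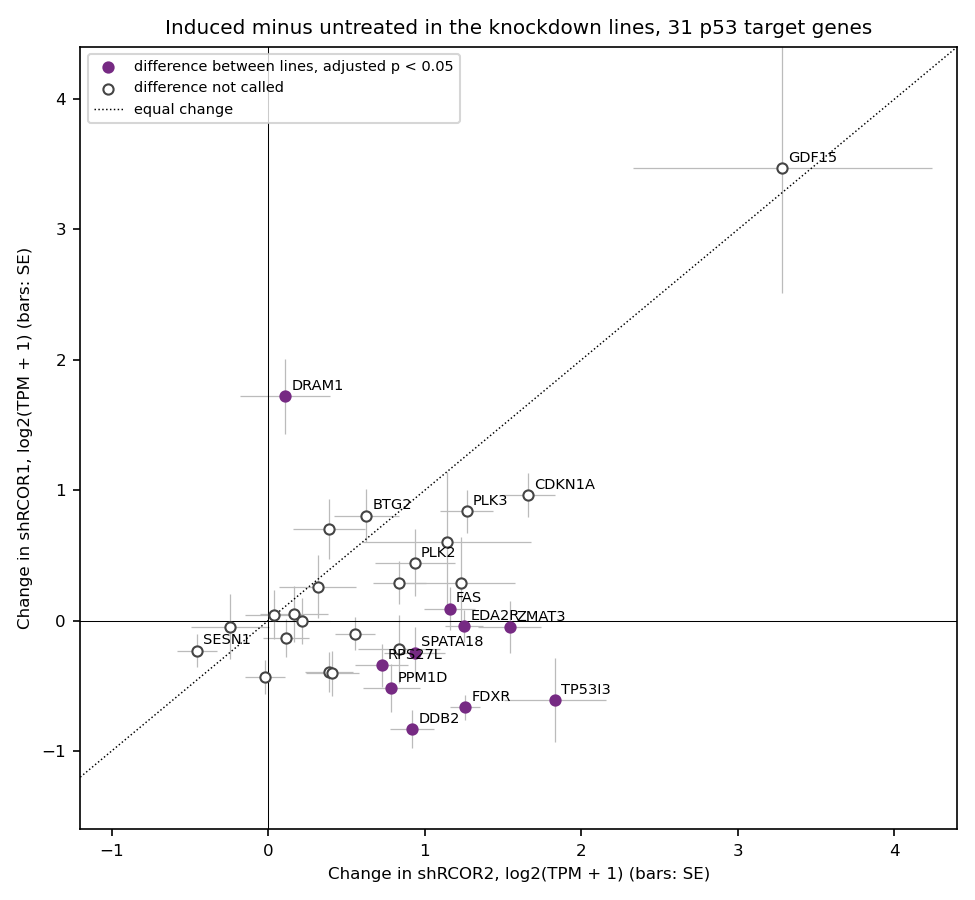
Change of each tested member in shRCOR2 cells (horizontal) and in shRCOR1 cells (vertical), as differences of log2(TPM + 1) with bars for the SE; purple points have a called difference between the lines. DDB2, FDXR, TP53I3 and PPM1D have positive shRCOR2 and negative shRCOR1 changes, CDKN1A and PLK3 lie in the upper right, and DRAM1 stands apart above.

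Setting the shRCOR2 change against the shRCOR1 change shows which members differed between the knockdown lines. It was higher in shRCOR2 for 9 of 31 members (5.2% of all genes were) and lower for 1 (5.97%), with a median difference of 0.55, against 0.04 over all genes. The 9 were TP53I3 (2.44 ± 0.46), FDXR (1.92 ± 0.14), DDB2 (1.75 ± 0.20), ZMAT3 (1.59 ± 0.28), PPM1D (1.30 ± 0.26), EDA2R (1.29 ± 0.17), SPATA18 (1.18 ± 0.27), RPS27L (1.07 ± 0.24) and FAS (1.07 ± 0.23), and the lower one was DRAM1 (−1.61 ± 0.41), which entered the test only through the induced shRCOR1 libraries where it is high, so that its call was set by the filter. The smallest limma adjusted p was 0.000595, for FDXR, and the largest 0.0386, for DRAM1. DDB2 and FDXR rose in one line and fell in the other. For the arrest genes CDKN1A and PLK3, which rose in both lines, the difference was not called: 0.70 ± 0.24 for CDKN1A (adjusted p = 0.1004, 0.0186 with the block and 0.0465 with FPKM) and 0.43 ± 0.24 for PLK3 (adjusted p = 0.298, and 0.146 with the block).

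With the block 15 members were higher and 1 lower in this comparison, among 15.7% and 14.7% of all genes (30.4% in either direction), adding CDKN1A, PIDD1, RRM2B, TIGAR, TRIAP1 and XPC. Of the 10 calls without it, 4 to 7 remained when 1 of the 8 libraries was left out: 4 without induced replicate 1 or untreated replicate 2 of shRCOR2, or untreated replicate 1 of shRCOR1; 6 without induced replicate 2 of shRCOR2, or induced replicate 2 or untreated replicate 2 of shRCOR1; and 7 without untreated replicate 1 of shRCOR2 or induced replicate 1 of shRCOR1. DDB2, EDA2R, FDXR and ZMAT3 kept theirs throughout. With no filter on low values DRAM1, FAS and SPATA18 were not called (adjusted p = 0.0697, 0.0525 and 0.0587), nor was RPS27L with median-of-ratios scaling (0.0525) or DRAM1 with a pseudocount of 0.1 (0.0542).

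**Figure D4:**
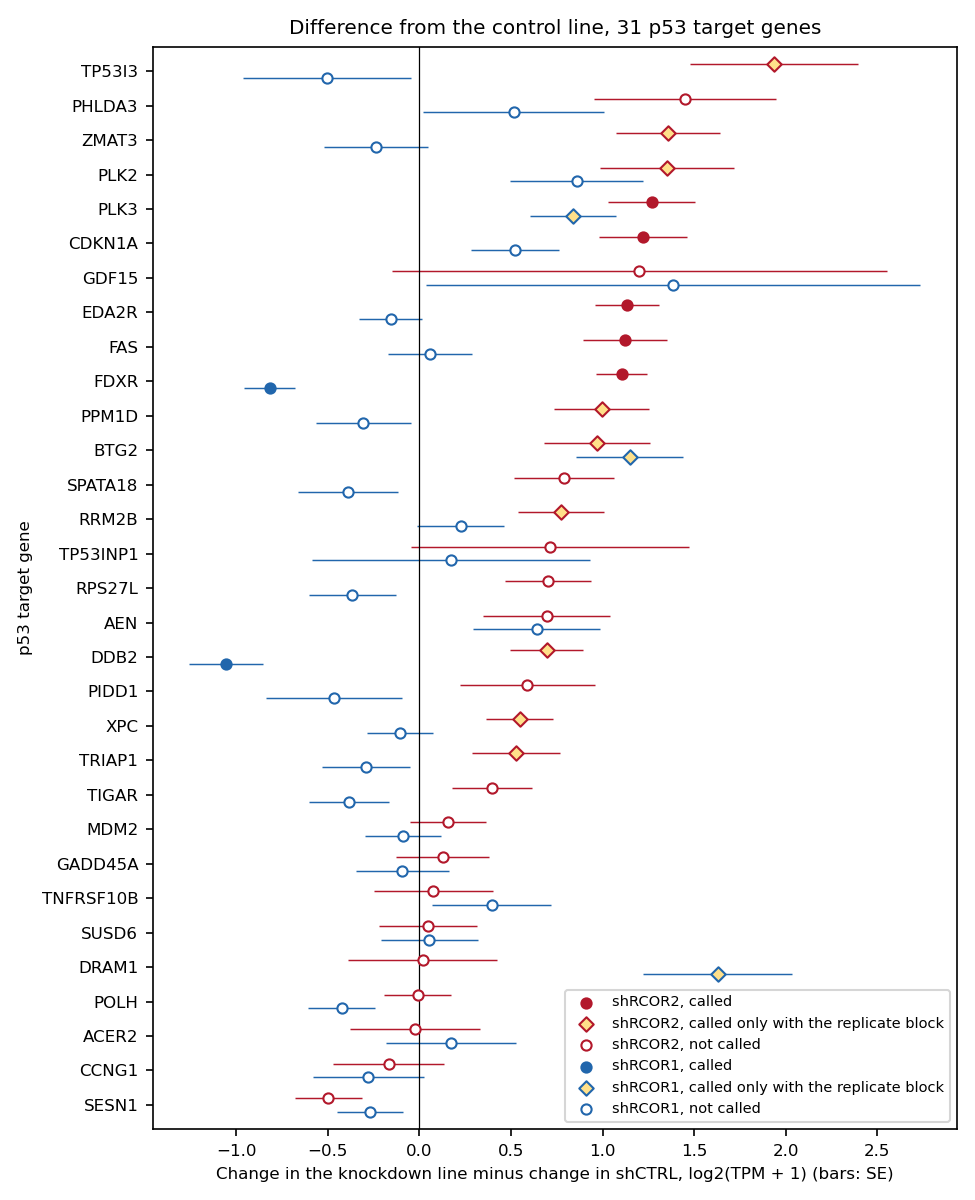
Change in each knockdown line minus the change in shCTRL, as differences of log2(TPM + 1) with bars for the SE, for the 31 tested members ordered by the shRCOR2 value; diamonds are called only with the replicate block. In shRCOR2 the values of 27 members are above 0 and 5 are called; in shRCOR1 the called ones, DDB2 and FDXR, are below 0.

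The change in each knockdown line was also set against the change of shCTRL cells, which received doxycycline with a control hairpin. Relative to shCTRL, 5 of 31 members rose more in shRCOR2 cells (0.891% of all genes did) and 0 less (1.2% of all genes, and 2.09% in either direction). The median difference was 0.70, against 0.09 over all genes. At an unadjusted p below 0.05 limma gave 17 of the 31 members, 16 higher and 1 lower, and 17.4% of all genes in either direction. The 5 called were PLK3 (1.27 ± 0.24, limma adjusted p = 0.03804), CDKN1A (1.22 ± 0.24, 0.0444), EDA2R (1.14 ± 0.17, 0.0239), FAS (1.12 ± 0.23, 0.0492) and FDXR (1.11 ± 0.14, 0.0123). TP53I3 and ZMAT3 had larger or similar differences, 1.94 ± 0.46 and 1.36 ± 0.28, with larger errors (limma adjusted p = 0.0705 and 0.0526). With the block 14 members were higher, among 8.93% of all genes, and 0 lower, among 5.8%: the 5 and BTG2, DDB2, PLK2, PPM1D, RRM2B, TP53I3, TRIAP1, XPC and ZMAT3.

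Of these 5 calls 0 remained without any 1 of the 4 shRCOR2 libraries or without untreated shCTRL replicate 2. Without untreated shCTRL replicate 1, 1 of the 5 remained, without induced shCTRL replicate 2, 2, and without induced shCTRL replicate 1, 4. With no filter on low values 2 of the 5 were called, EDA2R and FDXR, and without mitochondrial genes 3, since CDKN1A and FAS were lost (adjusted p = 0.0769 and 0.0579). FAS was also lost with a pseudocount of 0.1 (adjusted p = 0.0667), and FAS and PLK3 with median-of-ratios scaling (0.0763 and 0.0783), where ZMAT3 became called (0.0246).

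Relative to shCTRL, the shRCOR1 change was lower for 2 members (0.439% of all genes) and higher for 0 (0.843%), with a median of −0.09, against 0.05 over all genes. At an unadjusted p below 0.05 limma gave 7 of the 31 members, 4 higher (with DRAM1 among them) and 3 lower, and 14.0% of all genes in either direction. The 2 called were DDB2 (−1.06 ± 0.20, limma adjusted p = 0.0478) and FDXR (−0.82 ± 0.14, 0.0323). CDKN1A, which rose within this line, differed from shCTRL by 0.52 ± 0.24 (adjusted p = 0.384, and 0.09997 with the block). With the block BTG2, PLK3 and, through the same filter, DRAM1 were higher, so 3 were higher (6.59% of all genes) and 2 lower (3.57%). Both calls remained without induced shCTRL replicate 1 and ended without any other 1 of the 8 libraries, or without mitochondrial genes (adjusted p = 0.0742 for DDB2 and 0.0708 for FDXR). The DDB2 call was also lost with no filter on low values (adjusted p = 0.0571). The shCTRL libraries are shared by both of these comparisons, so their values are not independent of each other.

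MDM4, the partner of MDM2 in restraining p53, had 15.7 and 19.1 TPM in induced shRCOR2 libraries, against 18.8 and 25.02 TPM in untreated ones. In shRCOR1 MDM4 had 20.4 and 32.1 TPM induced, against 16.4 and 28.9 TPM untreated, and in shCTRL 17.7 and 30.9 TPM induced, against 15.8 and 25.6 TPM untreated. Replicate 2 was above replicate 1 in every group, and MDM4 was not called in any line.

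Of 24 tested genes of p53 regulation, 4 rose and 2 fell in shRCOR2 cells (8 and 3 with the block; median 0.08), 3 rose and 1 fell in shRCOR1 cells (6 and 5; median 0.15), and 0 were called in shCTRL (0 with the block, 1 at an unadjusted p below 0.05 in limma, beside 5.57% of all genes; median −0.07). Over all genes 7.81% rose and 6.47% fell in shRCOR2 (21.4% and 14.8% with the block), and 4.98% and 3.64% in shRCOR1 (15.4% and 12.1%). In shRCOR2 SIRT1, a deacetylase of p53, fell (−0.90 ± 0.13), with 17.1 and 17.1 TPM induced, against 35.98 and 29.7 TPM untreated. RCHY1, a ubiquitin ligase for p53, rose (0.91 ± 0.26), and TP53BP2, for a binding partner of p53, fell in shRCOR2 (−0.49 ± 0.11) and in shRCOR1 (−0.54 ± 0.11). PPP1R13B, a relative of TP53BP2, rose in shRCOR1 (1.65 ± 0.18), with 45.5 and 56.9 TPM induced, against 14.9 and 16.2 TPM untreated, as did the deubiquitinase gene USP7 (0.45 ± 0.09) and the ligase gene COP1 (0.38 ± 0.08). With median-of-ratios scaling 2 of the 24 were called in shRCOR2, both falls, and with no filter 1 rose and 2 fell. The largest shCTRL changes were 0.30 ± 0.12 for RPL5, a ribosomal protein that binds MDM2, and −0.27 ± 0.18 for TP73, a transcription factor. Relative to shCTRL 0 were called in shRCOR2 (5 at an unadjusted p below 0.05). With the block 3 were higher and 1 lower there, RCHY1 (1.14 ± 0.37, limma adjusted p = 0.02404) and SIRT1 (−0.80 ± 0.18, 0.00878) among them. In shRCOR1 1 was called, PPP1R13B (1.61 ± 0.26, limma adjusted p = 0.0297), a count of 1 that became 0 with median-of-ratios scaling and 2 with the block. Over all genes 0.891% were higher and 1.2% lower in shRCOR2 against shCTRL (8.93% and 5.8% with the block). At an unadjusted p below 0.05 in limma 17.4% passed there. In shRCOR1 against shCTRL 0.843% of all genes were higher (6.59% with the block). Between the knockdown lines PPP1R13B was lower in shRCOR2 (−1.53 ± 0.26).

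A second list of 50 further p53 targets, 44 of them tested, had 11 rises and 1 fall in shRCOR2 cells (18 and 4 with the block; median 0.28), 7 rises and 4 falls in shRCOR1 cells (14 and 9; median 0.21) and 0 calls in shCTRL (0 with the block, 5 at an unadjusted p below 0.05 in limma, beside 5.57% of all genes; median 0.02). The shares of all genes that rose and fell were 7.81% and 6.47% in shRCOR2 (21.4% and 14.8% with the block), and 4.98% and 3.64% in shRCOR1 (15.4% and 12.1%). In shRCOR2 the changes largest in size were those of ZNF79 (1.67 ± 0.14), BBC3 (1.35 ± 0.21), the cytokine gene LIF (1.30 ± 0.24) and the lipid kinase gene SPHK1, which fell (−1.22 ± 0.19). BBC3, for the death activator PUMA, had 35.3 and 27.4 TPM in induced shRCOR2 libraries, against 11.6 and 11.6 TPM in untreated ones. In shRCOR1 BBC3 had 49.3 and 55.2 TPM induced, against 11.1 and 9.53 TPM untreated, and in shCTRL 20.1 and 27.8 TPM induced, against 10.5 and 14.8 TPM untreated. Induced libraries were above untreated ones in all 3 lines. BBC3 rose in shRCOR1 as well (2.23 ± 0.21, limma adjusted p = 0.0008898), and the difference between the knockdown lines was −0.89 ± 0.29 (adjusted p = 0.0884, and 0.0391 with the block). BAX, the pore-forming death effector, had 315 and 279.7 TPM in induced shRCOR2 libraries, against 176 and 143 TPM in untreated ones, and 131 and 109 TPM induced, against 163 and 158 TPM untreated in shRCOR1. BAX rose in shRCOR2 (0.90 ± 0.18, adjusted p = 0.0133), fell in shRCOR1 with the block (−0.42 ± 0.18, adjusted p = 0.189 without and 0.0159 with it), and differed between the lines by 1.32 ± 0.25 (adjusted p = 0.01301).

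Other large changes of that list in shRCOR1 were rises of the stress gene SESN2 (2.43 ± 0.53) and the netrin receptor gene UNC5B (1.57 ± 0.33) and a fall of the growth factor gene KITLG (−1.38 ± 0.22). The largest shCTRL changes were 1.28 ± 0.58 for DDIT4 and 1.16 ± 0.53 for SESN2, and both genes also stand in the ATF4 list. Between the knockdown lines 8 were higher and 2 lower in shRCOR2 (13 and 5 with the block; 5.2% and 5.97% of all genes, 15.7% and 14.7% with it), led by ZNF79 (2.04 ± 0.20), SPHK1 (−2.02 ± 0.26), KITLG (1.90 ± 0.31) and BAX. Relative to shCTRL 3 were higher in shRCOR2: ZNF79 (1.88 ± 0.20), CCDC90B (1.06 ± 0.19) and the esterase gene CES2 (0.83 ± 0.15). The count became 12 higher and 1 lower with the block, and 5 higher with FPKM. Of all genes 0.891% were higher there, and 8.93% higher and 5.8% lower with the block. In shRCOR1 against shCTRL 0 were called (BBC3 1.36 ± 0.29, SESN2 1.26 ± 0.75). With the block 6 were higher, BBC3 among them (limma adjusted p = 0.0194), and 3 lower, beside 6.59% and 3.57% of all genes. At an unadjusted p below 0.05 limma gave 14, beside 14.0% of all genes.

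**Figure D5:**
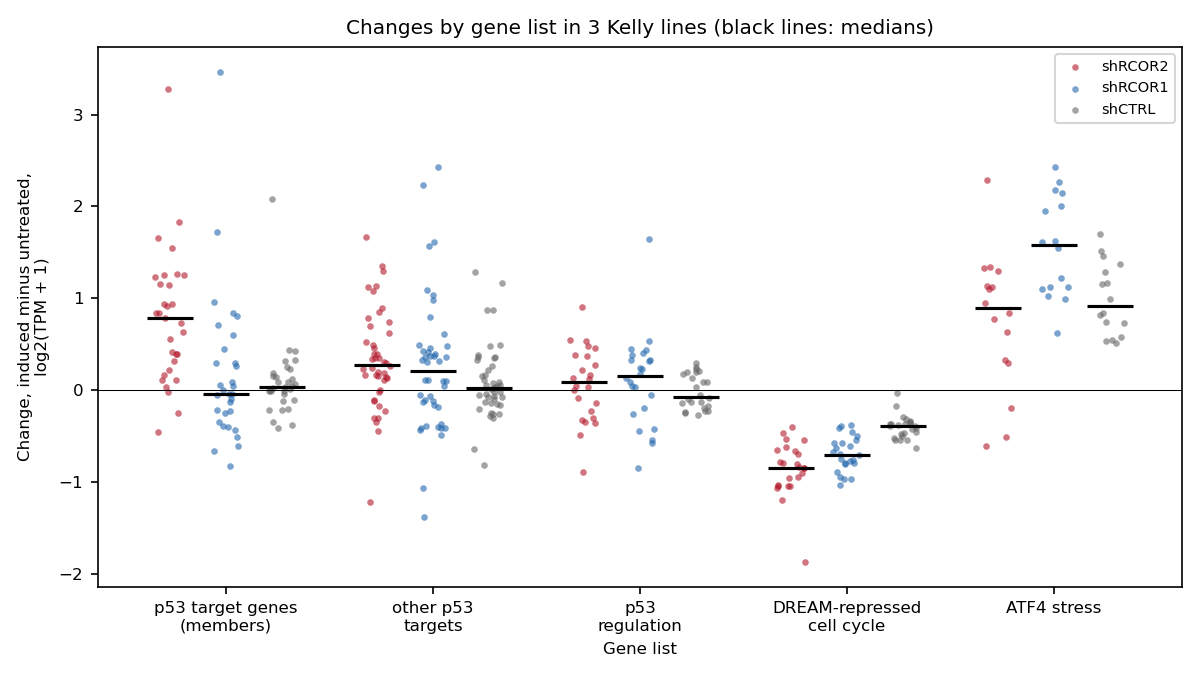
Change on induction of each tested gene of 5 lists in the 3 lines, as a difference of log2(TPM + 1), with black lines for the medians. For the 31 members the medians are 0.79 in shRCOR2, −0.04 in shRCOR1 and 0.03 in shCTRL; for the 24 cell cycle genes repressed by the DREAM complex they are −0.85, −0.70 and −0.40.

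p53 lowers mitotic genes through p21 and the DREAM repressor complex, and 24 such genes were tested. Of these, 9 fell and 0 rose in shRCOR2 cells (23 and 0 with the block), 1 fell and 0 rose in shRCOR1 cells (21 and 0), and 0 were called in shCTRL (0 with the block, 4 at an unadjusted p below 0.05 in limma, beside 5.57% of all genes), with medians of −0.85, −0.70 and −0.40. The changes of all 24 were negative in each of the 3 lines, shCTRL included. Of all genes 6.47% fell in shRCOR2 (14.8% with the block) and 3.64% in shRCOR1 (12.1%). BIRC5, for the survival and mitosis protein survivin, had 47.4 and 37.4 TPM in induced shRCOR2 libraries, against 181 and 136 TPM in untreated ones. In shRCOR1 BIRC5 had 129 and 63.1 TPM induced, against 176 and 137 TPM untreated, and in shCTRL 151 and 85.2 TPM induced, against 183 and 126 TPM untreated. It fell in shRCOR2 (−1.88 ± 0.38), as did the mitotic motor gene KIF11 (−1.05 ± 0.25), the topoisomerase gene TOP2A (−1.04 ± 0.22) and the kinase gene NEK2 (−1.03 ± 0.29). In shRCOR1 CENPF, for a kinetochore protein, fell (−0.61 ± 0.15), a count of 1 that became 0 with median-of-ratios scaling or no filter and 3 without mitochondrial genes. CENPA had −1.03 ± 0.35 and KIF20A −0.97 ± 0.38, and both fell with the block (limma adjusted p = 0.00128 and 0.00294). In shCTRL MKI67, the proliferation marker, had −0.63 ± 0.22 and CCNB1, a mitotic cyclin, −0.55 ± 0.38. Relative to shCTRL limma called 0 of the 24 in either line (1 in shRCOR2 and 0 in shRCOR1 at an unadjusted p below 0.05, beside 17.4% and 14.0% of all genes). With the block 4 were lower in shRCOR2 and 0 in shRCOR1. The 4 took in BIRC5 (−1.46 ± 0.54, limma adjusted p = 0.00654) and NEK2 (−0.86 ± 0.41, 0.0145). In shRCOR1 AURKB had −0.65 ± 0.45 and CENPA −0.57 ± 0.50. Between the knockdown lines 0 were called (0 at an unadjusted p below 0.05 in limma, beside 26.3% of all genes). With the block 3 were lower in shRCOR2, BIRC5 (−1.10 ± 0.54, limma adjusted p = 0.00786) and KIF11 (−0.64 ± 0.35, 0.0398) among them. Relative to shCTRL 1.2% of all genes were lower in shRCOR2 (5.8% with the block) and 0.439% in shRCOR1 (3.57%). Between the knockdown lines 5.97% of all genes were lower in shRCOR2 (14.7% with the block). With FPKM or median-of-ratios scaling 5 of the 24 fell in shRCOR2, and with no filter 3.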

How the data were processed

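Total RNA of 12 Kelly libraries, 2 in each of 6 groups, was sequenced from directional libraries, per the labels' protocols. Per the submitters' processing notes the tools were Trim Galore 0.6.7, HISAT2 2.2.1 and StringTie 2.1.7 with GRCh38 (hg38); the sources used here state neither annotation nor strand setting. The authors deposited TPM, FPKM and coverage (signal) per gene, per the file headers. Read counts were not used here, so depth is known only in relative terms and no counting interval is given.

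Rows sharing an identifier (2 identifiers) were summed. Genes with at least 1 TPM in at least 2 libraries were fitted as log2(TPM + 1) with limma 3.58.1 in R 4.3.3, all 12 libraries sharing 1 spread; differences between lines are interaction contrasts. Python 3.11.15, numpy 2.4.6, pandas 2.3.3 and matplotlib 3.10.9 were used otherwise, and the fit was tested on simulated data. Same-numbered replicates deviated together from their group means (15 pairs of groups, r = 0.372 to 0.75), so the numbers pair the samples.

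Members and lists were chosen with earlier results of these data known. Members called in any comparison, with or without the block, are given by library, the others by range or mean; MDM4, RCOR1, RCOR2 and KDM1A are always named, and of other lists the genes with the largest called changes, or the 2 with the largest changes by value where none or 1 was called; some genes this rule names are not reported here. Alternatives were a replicate block, a pseudocount of 0.1, no filter on low values, FPKM, median-of-ratios scaling, removal of the 37 mitochondrial genes and leaving out each library. Members without an entry in the RefSeq promoter table (TNFRSF10B, GADD45A, RRM2B, TP53INP1, PHLDA3 and TRIM22) were not searched for the motif.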

Additional observations from a re-analysis of the deposited data

Results flagged for a closer look

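The changes of 17 member and comparison pairs differed between lines by a test of the difference itself, in limma over all 16842 genes. Between shRCOR2 and shCTRL the change was higher in shRCOR2 for CDKN1A (1.22 ± 0.24, SE), FAS (1.12 ± 0.23), PLK3 (1.27 ± 0.24), FDXR (1.11 ± 0.14) and EDA2R (1.14 ± 0.17), with adjusted p between 0.0123 and 0.0492. Between shRCOR1 and shCTRL it was lower in shRCOR1 for DDB2 (−1.06 ± 0.20) and FDXR (−0.82 ± 0.14), with adjusted p of 0.0478 and 0.0323.

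Between shRCOR2 and shRCOR1 it was higher in shRCOR2 for TP53I3 (2.44 ± 0.46), FDXR (1.92 ± 0.14), DDB2 (1.75 ± 0.20), ZMAT3 (1.59 ± 0.28), PPM1D (1.30 ± 0.26), EDA2R (1.29 ± 0.17), SPATA18 (1.18 ± 0.27), FAS (1.07 ± 0.23) and RPS27L (1.07 ± 0.24), and lower for DRAM1 (−1.61 ± 0.41), with adjusted p between 0.000595 and 0.0386. DRAM1 passed the filter on low values only through the induced shRCOR1 libraries where it is high, so its difference was set by the filter. DDB2 and FDXR stand in more than 1 of these comparisons with opposite signs in the knockdown lines. The comparisons share libraries, so their values are not independent.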

How the results depend on the processing

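No called change of a named gene turned its direction under the alternatives run. With the replicate block the count of called members became 23 in shRCOR2, 13 in shRCOR1, 0 in shCTRL, 14 for shRCOR2 against shCTRL, 5 for shRCOR1 against shCTRL and 16 for shRCOR2 against shRCOR1, from 15, 6, 0, 5, 2 and 10; over all genes it became 6099, 4620, 10, 2481, 1712 and 5122, from 2406, 1451, 0, 352, 216 and 1880. With no filter on low values, 2 members were called for shRCOR2 against shCTRL, and 6 genes in shCTRL, 350 for shRCOR1 against shCTRL, and 5 and 2 for untreated shRCOR2 and untreated shRCOR1 against untreated shCTRL cells. Without mitochondrial genes 3 members were called for shRCOR2 and 0 for shRCOR1 against shCTRL. Leaving out 1 library gave 6 to 8 called members (493 to 744 genes) in shRCOR2, 0 to 4 (326 to 694) in shRCOR1, 0 to 0 (0 to 0) in shCTRL, 0 to 6 (19 to 321) for shRCOR2 against shCTRL, 0 to 3 (26 to 173) for shRCOR1 against shCTRL, 4 to 7 (693 to 1132) for shRCOR2 against shRCOR1, and 0 to 0 members (0 to 0 and 0 to 1 genes) between untreated lines. The members' median change stayed between 0.65 and 0.82 in shRCOR2 over all alternatives and lay on both sides of 0 in shRCOR1, between −0.19 and 0.10. The higher and lower genes over all genes were 1316 and 1090 in shRCOR2 but 1963 and 981 with FPKM, 838 and 613 in shRCOR1 but 578 and 645 without mitochondrial genes, 150 and 202 for shRCOR2 against shCTRL but 104 and 270 with median-of-ratios scaling, 142 and 74 for shRCOR1 against shCTRL but 128 and 112 with FPKM, and 875 and 1005 for shRCOR2 against shRCOR1 but 1368 and 868 with FPKM. DRAM1 did not pass the filter with FPKM and has no value there. Relative depth differed 2.14-fold, and with 2 libraries a group the SE of a member's change ran between 0.10 for FDXR and 0.96 for GDF15. The cause of these shifts was not tested.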

Other observations

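Genes of the ATF4 stress response, which raise amino acid synthesis and also take in the p53 targets SESN2 and DDIT4, had positive changes in all 3 lines for most members. Of 16 tested, 3 rose in shRCOR2 cells (11 rose and 2 fell with the block), 13 rose in shRCOR1 cells (16 with the block) and 0 were called in shCTRL cells by limma (0 with the block, 11 at an unadjusted p below 0.05, beside 5.57% of all genes). Of all genes 7.81% rose in shRCOR2 (21.4% with the block) and 4.98% in shRCOR1 (15.4%). With median-of-ratios scaling 5 of the 16 rose and 2 fell in shRCOR2, and with FPKM 5 rose. In shRCOR2 the 3 were CHAC1, a glutathione-degrading enzyme (2.28 ± 0.42, SE), the stress factor gene XBP1 (0.78 ± 0.16) and the serine synthesis gene PHGDH (0.63 ± 0.12). In shRCOR1 the largest called changes were those of SESN2 (2.43 ± 0.53), TRIB3 (2.27 ± 0.59), CHAC1 (2.18 ± 0.42) and ATF3 (2.15 ± 0.34); the count of 13 became 7 with no filter and 8 without mitochondrial genes. In shCTRL CHAC1 had 1.70 ± 0.42 and the asparagine synthetase gene ASNS 1.52 ± 0.40. Between the knockdown lines 4 were lower in shRCOR2 (5 with the block), beside 5.97% (14.7%) of all genes. The 4 were PSAT1 (−1.70 ± 0.27), CEBPG (−1.54 ± 0.32), CEBPB (−1.42 ± 0.27) and ATF4 itself (−0.70 ± 0.17). Relative to shCTRL, CEBPB had −1.19 ± 0.27 in shRCOR2 (limma adjusted p = 0.0625, and 0.00815 with the block). PSAT1 was the 1 gene called without the block, lower in shRCOR2 (−1.33 ± 0.27). This count of 1 became 0 with no filter on low values or without mitochondrial genes, 2 with FPKM, and 3 with median-of-ratios scaling or the block. Of all genes 1.2% were lower in that comparison (5.8% with the block). In shRCOR1 against shCTRL 0.843% of all genes were higher (6.59% with the block). Against shCTRL 0 were called in shRCOR1 (2 at an unadjusted p below 0.05 in limma, beside 14.0% of all genes). ATF3 had 1.31 ± 0.47 and SESN2 1.26 ± 0.75, and ATF3 was the 1 higher with the block (limma adjusted p = 0.04596).

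Among 15 tested genes of the corepressor complex and its partners, 0 rose and 2 fell in shRCOR2 cells (0 and 3 with the block; 6.47% of all genes fell, 14.8% with it), RCOR2 and the deacetylase gene HDAC2 (−1.16 ± 0.12). HDAC2 had 55.6 and 70.9 TPM in induced shRCOR2 libraries, against 144 and 138 TPM in untreated ones. In shRCOR1 it had 113 and 103 TPM induced, against 141 and 149.8 TPM untreated, and in shCTRL 138 and 129.6 TPM induced, against 142 and 131 TPM untreated. In shRCOR1 cells 1 rose and 3 fell (2 and 5 with the block; 4.98% and 3.64% of all genes, 15.4% and 12.1% with it): the repressor gene SNAI1 rose (0.78 ± 0.15), and RCOR2 and RCOR1 were among the falls. In shCTRL limma called 0 (0 with the block, 0 at an unadjusted p below 0.05, beside 5.57% of all genes), with PHF21A at 0.31 ± 0.33 and INSM1 at −0.29 ± 0.36. Relative to shCTRL, RCOR2 (−1.24 ± 0.16) and HDAC2 (−1.13 ± 0.17) were lower in shRCOR2. In shRCOR1 0 were called, with REST at 0.97 ± 0.75 and SNAI1 at 0.89 ± 0.21 (4 at an unadjusted p below 0.05 in limma, beside 14.0% of all genes). With the block 1 was higher there, SNAI1 (limma adjusted p = 0.0248), and 2 were lower, RCOR2 and RCOR1. Of all genes 1.2% were lower in shRCOR2 against shCTRL. In shRCOR1 against shCTRL 6.59% of all genes were higher and 3.57% lower with the block. Between the knockdown lines SNAI1 (−0.96 ± 0.21) and HDAC2 (−0.73 ± 0.17) were lower and RCOR1 (0.71 ± 0.17) higher in shRCOR2, beside 5.97% and 5.2% of all genes. With the block 4 were lower and 2 higher, beside 14.7% and 15.7% of all genes.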
